A study of Canis lupus familiaris with 81 samples.

Results

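Osteosarcomas of dogs differ in how much of their probe signal is taken by a single probe, RTS0112268, and the 8 tumours in which that probe held the largest share of the counts were compared here with the 8 in which it held the smallest. For each of 68 osteosarcoma regions the count of RTS0112268 was expressed as a percent of the total count of the region, and these shares were averaged over the regions of each of 24 tumour numbers. The 8 tumours at the top of this ranking (high-share tumours) gave 28 regions and the 8 at the bottom (low-share tumours) gave 18, so that 46 of the 81 libraries of the series entered the comparison. The groups were therefore formed from measured values, and the share of RTS0112268 in them is a description of the choice.

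The tissue was primary osteosarcoma of the limbs of pet dogs (Canis lupus familiaris) enrolled in a trial of a comparative oncology consortium, set out as small pieces on 2 tissue microarrays, with kidney, spleen and liver as control tissues (4 regions each) and 1 no-template control. The study grouped its dogs by disease-free interval, but the labels used here do not give that group, nor the age, sex or treatment of any dog, for any tumour number. High-share tumours, low-share tumours and the 8 tumours between them thus share 1 label and differ in these data only by the ranking. Each tumour number was taken as 1 tumour, the p-values measure the spread between these tumours, and the labels do not say how regions were placed.

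Osteosarcoma is a cancer of bone whose malignant cells lay down bone matrix, a material built largely of collagen and mineral, and the amount of matrix, of stroma and of infiltrating blood cells differs between and within tumours. The GeoMx Digital Spatial Profiler hybridises a panel of tagged RNA probes to a section, releases the tags from a chosen region with light and counts them by sequencing, so that a region's counts are a mixture over all cells in it. The probes are identified by code only, none of the codes could be paired with a gene here, and no biological role is given to any probe below. No probe sequence was used here.

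RTS0112268 held 42.03% of the counts in tumour 2202, 38.8% in 404, 38.2% in 501, 37.9% in 610, 37.3% in 901, 34.6% in 702, 33.9% in 2206 and 33.0% in 1701, the 8 high-share tumours. Among the low-share tumours it held 8.66% in 309, 8.45% in 701, 7.11% in 502, 5.74% in 1405, 4.72% in 601, 4.34% in 2204, 2.41% in 1002 and 1.91% in 706. The means were 37.0% ± 2.98 in high-share tumours and 5.42% ± 2.55 in low-share tumours (SD, n = 8 tumours each), and the remaining 8 tumours averaged 14.5% ± 4.93. At the upper border, tumour 1701 at 33.0% was the last one inside and 2201 at 24.0% the first outside. At the lower border, tumour 309 at 8.66% was inside and 1801 at 11.1% outside. The step at the upper border was thus wider than that at the lower one.

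The single regions of high-share and low-share tumours did not overlap. The lowest region of a high-share tumour stood at 27.3% and the highest region of a low-share tumour at 9.74%, while regions of middle tumour 2201 reached 29.6% and 30.5% and a region of middle tumour 1403 stood at 6.79%, within the ranges of the high-share and low-share regions. The 12 control regions lay below 0.1%, where kidney averaged 0.0624%, spleen 0.0802% and liver 0.0462%. RTS0112268 was the highest probe in 28 of 28 high-share regions and in 10 of 18 low-share regions. It was also the highest in every region of the middle tumours. Regions of 1 high-share tumour could still differ widely. Tumour 404 had 48.5% and 27.3% on array 1 and 49.975% and 29.4% on array 2, and tumour 501 had 46.3% and 29.5% on array 1 and 47.2% and 29.9% on array 2. The median SD between regions was 2.33 percentage points in high-share tumours and 0.427 in low-share tumours. Across the 24 tumours the mean share on array 1 and that on array 2 had a Pearson r of 0.988 and a Spearman rho of 0.963, both given as a description because the arrays hold the same tumours. Ranking on array 1 alone would have kept 8 of the 8 high-share and 8 of the 8 low-share tumours, and ranking on array 2 alone 8 and 7.

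**Figure D1:**
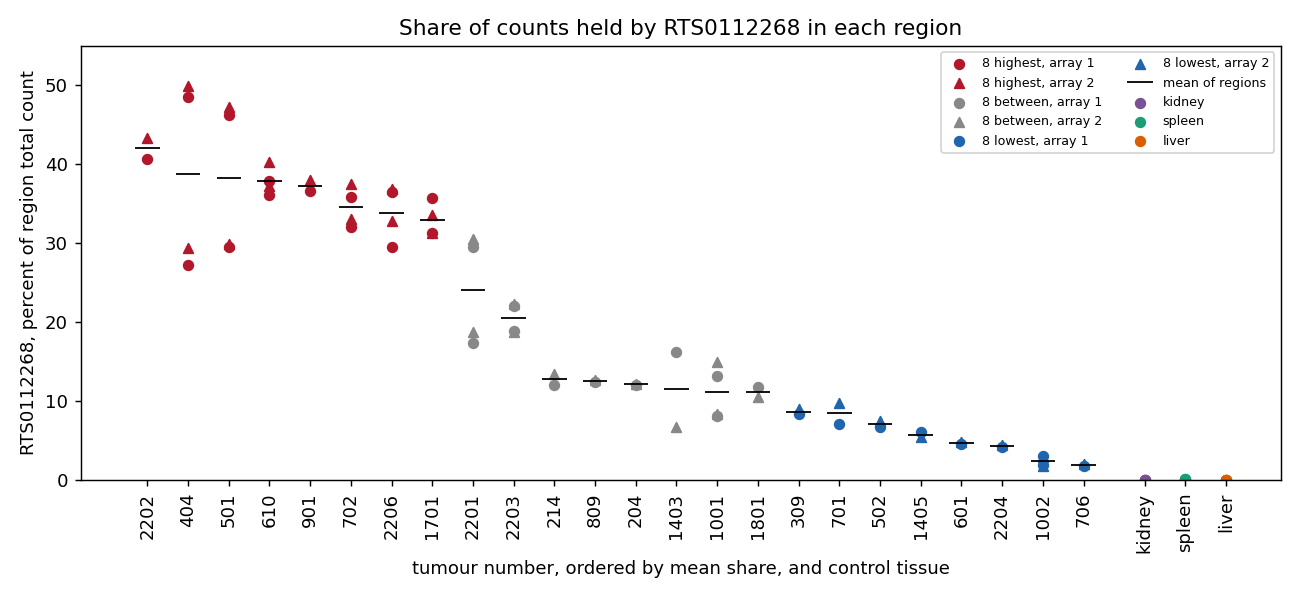
Percent of each region's total count held by RTS0112268 (y axis), with the 24 tumours ordered by mean share and the control tissues at the right (x axis); circles are array 1, triangles array 2 and black lines the mean of a tumour's regions. The 8 high-share tumours lie between 27.3% and 49.975%, the 8 low-share tumours at or under 9.74%, and kidney, spleen and liver next to 0.

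The depth ranges of the groups overlapped. Total counts per region ran from 17711 to 1069118 in high-share tumours (median 207240) and from 44345 to 557360 in low-share tumours (median 240978), and 2 high-share and 1 low-share regions had under 50000 counts. High-share tumours more often had 4 regions: 6 of the 8 had 4 and 2 had 2, against 1 with 4 and 7 with 2 among low-share tumours. Once RTS0112268 was set aside, the log2 total count per tumour averaged 16.74 ± 1.06 in high-share tumours and 17.53 ± 0.91 in low-share tumours, a difference of -0.79 that did not pass (exact permutation test, two-sided, p = 0.128, adjusted over 6 measures 0.192). The mean percent of probes with under 5 counts was 13.4% ± 13.9 in high-share tumours and 3.22% ± 4.84 in low-share tumours (exact permutation p = 0.0659, adjusted 0.132). Log2 aligned reads (difference -0.147, exact permutation p = 0.763, adjusted 0.792) and sequencing saturation (difference 0.0338 percentage points, exact permutation p = 0.792, adjusted 0.792) did not pass either. The number of regions averaged 3.5 ± 0.926 in high-share and 2.25 ± 0.707 in low-share tumours (exact permutation p = 0.0406, adjusted 0.122). The part that depth and region number have in the comparisons below was addressed by the alternatives with fewer regions, with thinned counts and with the total count as a covariate, given further on.

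With RTS0112268 removed, the counts that remained were still more concentrated in the high-share tumours. Their 10 highest other probes held 44.5% ± 7.15 of the remaining counts, against 20.0% ± 2.06 in low-share tumours (SD, n = 8 each), a difference of 24.6 percentage points. All 8 high-share tumours, the lowest at 34.5%, lay above every low-share tumour, the highest of which was at 22.2% (exact permutation p = 0.000155, the smallest that 8 against 8 can give, adjusted 0.000932). RTS0112269 and RTS0113569 made up most of this gap. When these were left out as well, a step chosen after seeing the data, the 10 highest held 19.0% ± 5.13 in high-share and 15.9% ± 1.85 in low-share tumours, a difference of 3.08 points (exact permutation p = 0.134). RTS0112268, RTS0112269 and RTS0113569 together held 48.4% to 67.7% of all counts in high-share tumours (median 57.2%), 4.89% to 17.7% in low-share tumours (median 11.6%) and 17.7% to 35.9% in the tumours between. Kidney regions gave 0.182%, spleen regions 0.53% and liver regions 0.132% for the same sum.

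**Figure D2:**
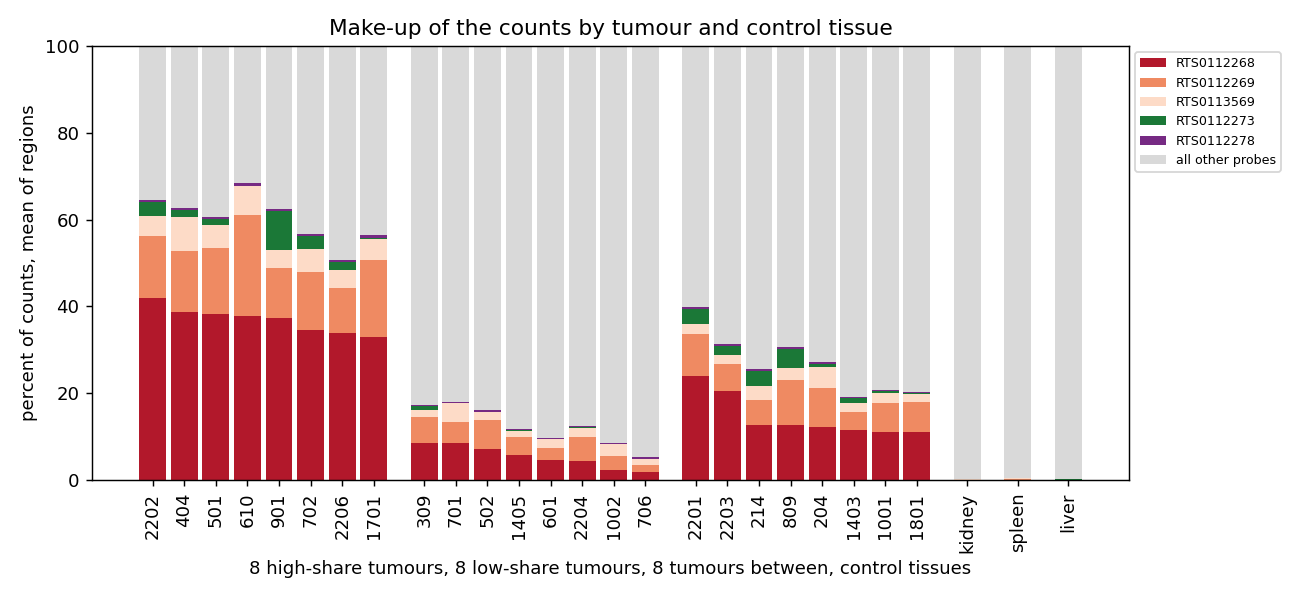
Percent of all counts (y axis, mean of a tumour's or tissue's regions) held by RTS0112268, 4 further probes and all other probes, for the high-share, low-share and middle tumours and the control tissues (x axis). The grey part takes 31.5% to 49.2% of the high-share bars and 82.0% to 94.8% of the low-share bars.

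The 8 high-share tumours were then tested against the 8 low-share tumours over the other 2009 probes, with counts summed per tumour and RTS0112268 kept out of the library size. Levels are given as CPM, the count scaled to a common library size with the TMM factors. Few probes passed. By edgeR's quasi-likelihood test 10 probes were higher (0.498% of those tested) and 4 were lower (0.199%), so 14 or 0.697% were called at an adjusted p under 0.05, while 376 had an unadjusted p under 0.05. DESeq2 called more, with 48 higher and 58 lower, and limma with voom called 44 and 63. That limma fit took the 46 regions singly, and since they come from 16 tumours, the tumour was a random block with an estimated correlation of 0.457 between regions. The median log2 fold change of all probes was 0.05. The biological coefficient of variation was 38.3% over both groups, and it was 39.9% within the high-share, 36.9% within the low-share and 41.5% within the middle tumours. In simulated data of the same size the test recovered 74% of changes of 1 log2 unit and 98% of changes of 2. Many more probes were changed there than were called here, which eases the adjusted threshold. These percents may therefore overstate the reach in the real data. The simulations further on changed as many probes. In bulk counts of a region, fewer cells of a type and less RNA per cell cannot be told apart, and this holds for each probe below.

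Among the 10 higher probes, 7 differed by at least 1 log2 unit and 5 by at least 2, and the 4 lower probes differed by 0.95 to 1.42. The levels of 4 of the 10 higher probes did not overlap between the groups, where 5 of all 2009 probes (0.249%) lay above without overlap. Of the 4 lower probes 1 did not overlap, where 1 of all probes (0.0498%) lay below.

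**Figure D3:**
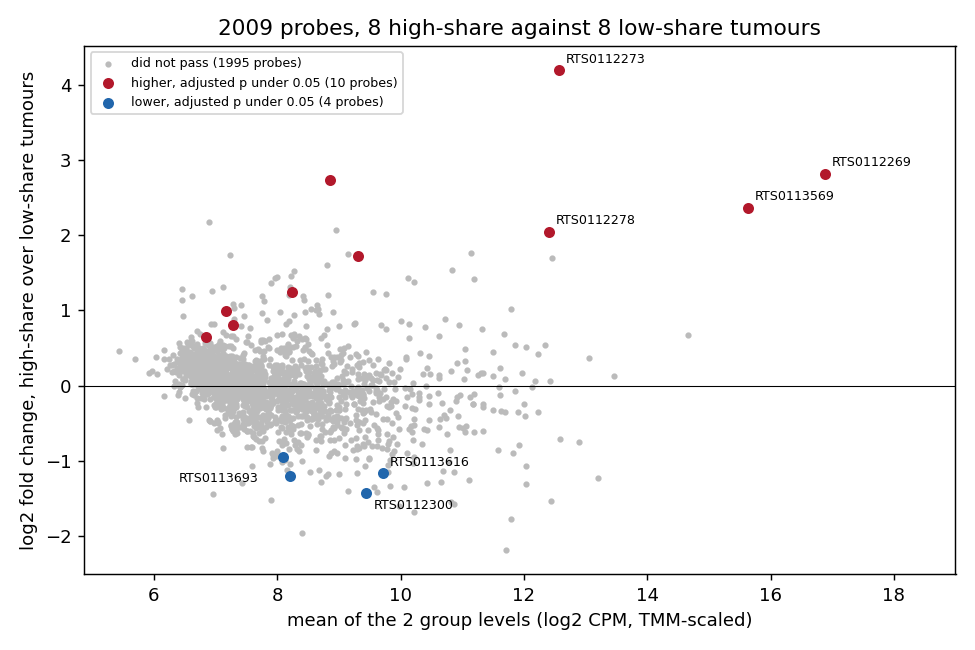
Log2 fold change of high-share over low-share tumours (y axis) against the mean of both group levels in TMM-scaled log2 CPM (x axis) for 2009 probes; red points are the 10 higher and blue points the 4 lower probes by edgeR. RTS0112269, RTS0113569, RTS0112273 and RTS0112278 lie at the upper right, from 2.05 to 4.19, and the lower probes lie 0.95 to 1.42 below 0.

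RTS0112269 held the second largest share of the counts, after RTS0112268, in each of the 8 high-share tumours. It was also second in 8 of the 8 middle and 6 of the 8 low-share tumours. As a percent of the counts that remain without RTS0112268, it held 24.7% in tumour 2202, 24.5% in 404, 25.7% in 501, 37.3% in 610, 18.5% in 901, 20.3% in 702, 15.7% in 2206 and 26.5% in 1701. In the low-share tumours it held 6.33% in 309, 5.42% in 701, 7.33% in 502, 4.42% in 1405, 2.90% in 601, 5.90% in 2204, 3.29% in 1002 and 1.51% in 706. The groups did not overlap, with the lowest high-share tumour, 2206, more than 8 percentage points above the highest low-share tumour, 502. The edgeR log2 fold change was 2.82 ± 0.46 (SE, adjusted p = 0.00553).

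RTS0113569 held 6.14% to 14.0% of the remaining counts in high-share tumours (median 7.88%) and 1.52% to 4.67% in low-share tumours (median 1.96%), without overlap. Its log2 fold change was 2.37 ± 0.40 (SE, edgeR adjusted p = 0.00553).

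RTS0112278, which was chosen for description after its values were seen, was a far smaller part of the counts. It held 0.906% of the remaining counts in tumour 2202, 0.458% in 404, 0.66% in 501, 1.07% in 610, 0.7% in 901, 0.618% in 702, 0.929% in 2206 and 1.04% in 1701. In low-share tumours it held 0.236% in 309, 0.368% in 701, 0.372% in 502, 0.207% in 1405, 0.226% in 601, 0.206% in 2204, 0.168% in 1002 and 0.301% in 706. The lowest high-share tumour, 404, was above the highest low-share tumour, 502, so the groups did not overlap. The log2 fold change was 2.05 ± 0.34 (SE, edgeR adjusted p = 0.00553). The control tissues were at 0.0163% in kidney, 0.0257% in spleen and 0.0264% in liver, below all tumours.

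RTS0112273 had the largest fold change of the 14 and also the widest spread. It held 5.57% of the remaining counts in tumour 2202, 2.57% in 404, 2.28% in 501, 0.189% in 610, 14.5% in 901, 4.73% in 702, 2.75% in 2206 and 0.163% in 1701. In low-share tumours it held 1.09% in 309, 0.0387% in 701, 0.114% in 502, 0.26% in 1405, 0.109% in 601, 0.428% in 2204, 0.013% in 1002 and 0.0408% in 706. Tumours 610 and 1701, both high-share, were at the level of low-share tumours. Low-share tumours 309, 2204 and 1405 were above both of them in this percent, so the groups overlapped. In TMM-scaled CPM, 309 (13880) and 2204 (4365) were above 610 (4150) and 1701 (3671), and 1405 (2306) was below. The log2 fold change was 4.19 ± 0.93 (SE, edgeR adjusted p = 0.0358), and this call was lost, with an adjusted p of up to 0.0778, without any 1 of tumours 2202, 901, 2206, 701, 502, 1405, 601, 2204, 1002 and 706. The control tissues held 0.018% in kidney, 0.0224% in spleen and 0.0231% in liver. Their regions ran from 116 CPM (a spleen region) to 209 CPM (a liver region). Low-share tumour 1002, at 133 CPM, lay within that range, and 701 (394 CPM) and 706 (406 CPM) lay above it. Background was not subtracted, and the part it has in these low values was not tested.

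The 6 other higher probes were RTS0111902, RTS0112029, RTS0112265, RTS0113384, RTS0113668 and RTS0113787, with log2 fold changes from 0.64 to 2.73. Among these, RTS0112265 averaged 10.03 log2 CPM in high-share and 7.68 in low-share tumours, and RTS0113787 averaged 7.15 and 6.54. The median over all 2009 probes was 7.59 in high-share and 7.62 in low-share tumours. RTS0113787 did not overlap between the groups in spite of having the smallest fold change of the 10, while the other 5 of these overlapped. Of the 10 higher probes, 5 came from the 502 probes with the lowest level in the control tissues, which is 0.9960% of those 502 against 0.498% over all 2009.

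**Figure D4:**
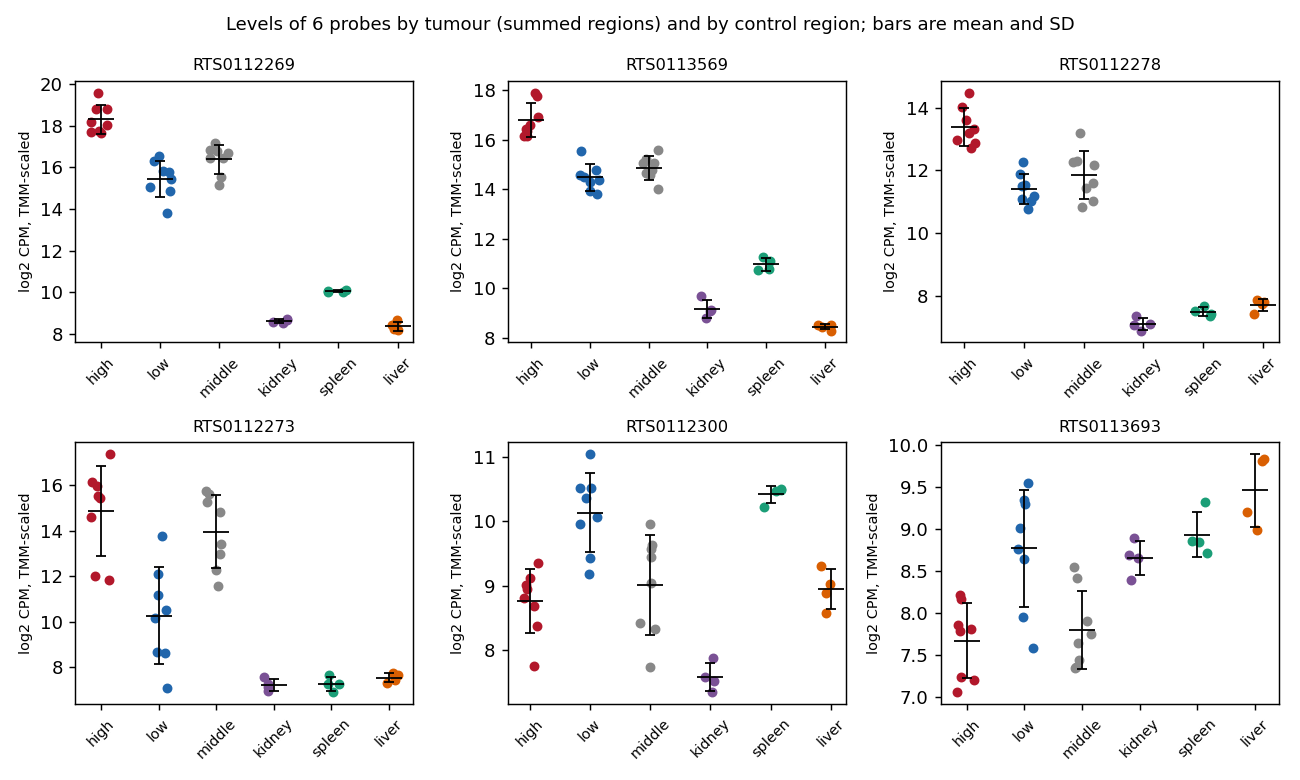
Levels of 6 probes in TMM-scaled log2 CPM (y axes) in high-share, low-share and middle tumours (1 point per tumour) and in kidney, spleen and liver (1 point per region), with mean and SD as bars. RTS0112269, RTS0113569 and RTS0112278 separate high-share from low-share tumours, whereas RTS0112273, RTS0112300 and RTS0113693 overlap.

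RTS0112300 had the largest fall. In CPM, it stood at 210 in tumour 2202, 325 in 404, 444 in 501, 646 in 610, 405 in 901, 552 in 702, 512 in 2206 and 488 in 1701. In low-share tumours it stood at 984 in 309, 574 in 701, 1459 in 502, 1310 in 1405, 2102 in 601, 686 in 2204, 1466 in 1002 and 1069 in 706. Only low-share tumour 701 was below the highest high-share tumour, 610. The log2 fold change was -1.42 ± 0.30 (SE, edgeR adjusted p = 0.0312). The probe stood at 1189 to 1445 CPM in spleen, 374 to 626 in liver and 157 to 230 in kidney. The median of the low-share tumours, 1189 CPM, came nearest to spleen. Singly, low-share tumour 701 lay within the liver range and 2204 nearer to liver than to spleen. Tumours 502 and 1002 lay just above every spleen region, and 601 further above. The call was lost without any 1 of tumours 2202, 901, 2206, 502, 1405, 601, 1002 and 706 (edgeR adjusted p up to 0.0778).

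RTS0113616, which was picked out after its values were seen as the lower probe without overlap, ranged from 361 to 864 CPM in high-share tumours (median 500.1) and from 932 to 1765 in low-share tumours (median 1256). The middle tumours, at a median of 486 CPM, were at the level of the high-share tumours and did not lie between the groups. The log2 fold change was -1.17 ± 0.26 (SE, edgeR adjusted p = 0.0358), and the call held in 4 of the 16 fits without 1 tumour (without 404, 610, 1701 or 309). RTS0113693 ranged from 128 to 292 CPM in high-share tumours (median 216) and from 187 to 741 in low-share tumours (median 469), with overlap. Its log2 fold change was -1.20 ± 0.28 (SE, edgeR adjusted p = 0.0499), next to the threshold, and the call held in 3 of those 16 fits (without 404, 309 or 701). The remaining lower probe, RTS0113332, had a log2 fold change of -0.95 with an adjusted p of 0.0499 in the same edgeR test.

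How many probes passed depended on single tumours. With 1 of the 16 tumours left out, 3 to 32 probes were higher and 0 to 28 were lower. Without low-share tumour 309 there were 32 higher and 28 lower, and without high-share tumour 1701 there were 16 and 7. Without tumour 2202 there were 5 higher and 0 lower, and without 901 there were 7 and 0. Without any 1 of 2206, 502, 1405, 601, 1002 and 706 there were 3 higher and 0 lower, and without 701 there were 3 and 2. The number lower was 1 without 501 and 2 without 702 or 2204. Both 309 and 1701 were the tumours next to a border of their group. RTS0112269, RTS0113569 and RTS0112278 passed in all 16 of these fits and in each of the other alternatives in which they were tested, whereas each of the other 11 probes passed in 3 to 8 of the 16. All 10 higher and all 4 lower probes kept their direction in each of these fits.

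**Figure D5:**
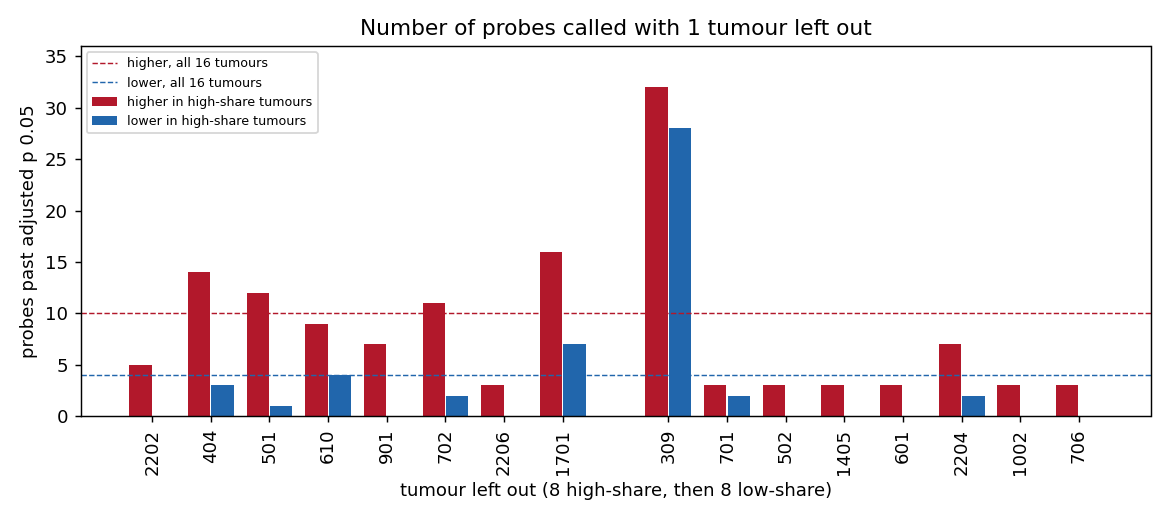
Number of probes past an adjusted p of 0.05 (y axis) when the named tumour is left out (x axis), higher in red and lower in blue; dashed lines give the 10 higher and 4 lower probes with all 16 tumours. Leaving out 309 gives 32 and 28, and leaving out any 1 of 6 tumours (2206, 502, 1405, 601, 1002 or 706) gives 3 and 0.

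The tumours between the groups took no part in the comparison and were used to ask whether the same probes followed the share there. The mean of the 8 middle tumours lay between the group means for 9 of the 10 higher and 3 of the 4 lower probes. This count was not made over all 2009 probes. Group means that lie far apart, as those of called probes do, leave more room for another mean between them. The 9 and 3 are thus a description only. Within the middle tumours, whose shares run from 11.1% to 24.0%, the fitted slope on log2 share had the sign of the call for 8 of the 10 higher and 2 of the 4 lower probes. The slope was positive for 905 of all 2009 probes. None of the 14 probes passed the test of that slope, in which edgeR called 1 of 2009 probes (0.0498%) and 89 had an unadjusted p under 0.05. That test had less reach, as it recovered 21% of slopes of 1 log2 unit per doubling of the share and 75% of slopes of 2 in simulated data. The called probe, RTS0112851, had a slope of 2.75 (edgeR adjusted p = 0.0435). It stood at 1507 CPM in tumour 2201 and at 89.1 to 197 CPM in the other 7 middle tumours, and without 2201 its slope was 0.04 (edgeR adjusted p = 0.998). RTS0112851 was named for its slope after its values were seen, and between high-share and low-share tumours it did not pass (log2 fold change 0.27, edgeR adjusted p = 0.388).

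Regions of the same tumour on the same array gave a comparison that does not cross tumours. There were 20 such pairs from 10 tumours, in which the share of RTS0112268 differed by 1.07 to 21.2 percentage points (median 4.41). RTS0112269, RTS0113569 and RTS0112278 were each higher in the region of higher share in 16 of the 20 pairs and in 8 of the 10 tumours, by a mean of 0.71, 0.52 and 0.38 log2 units. RTS0111902 was higher in 16 pairs too. The other 6 higher probes were higher in 10 to 12 of the 20 pairs, RTS0112273 in 10. Among the 4 lower probes, RTS0113332 was higher in the region of higher share in 4 of 20 pairs, RTS0113693 in 5, and RTS0112300 and RTS0113616 in 7 each. The median over all 2009 probes was 10 of 20, and 35 of them reached 16 or more. The 2 arrays hold the same tumours, so the 20 pairs are not independent, and no test was made.

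In tumour 404, where the share was 48.5% and 27.3% in the regions of array 1, RTS0112269 was 1.80 and RTS0113569 2.09 log2 units higher in the region of higher share. On array 2 these differences were 1.43 and 1.64. RTS0112273 went the other way in that tumour, by -0.66 on array 1 and -1.14 on array 2.

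The contrast between high-share and low-share tumours was also set against the array. The test of an interaction between array and group in edgeR called 0 of 2009 probes, 87 had an unadjusted p under 0.05, and the lowest adjusted p was 0.999. In simulated data 23% of differences of 1 log2 unit and 85% of those of 2 were recovered. Those data spread the 2 arrays of a tumour as widely as different tumours. Unchanged probes had a median absolute difference of 0.256 there, against 0.111 over all probes in the real test. The simulation therefore does not give the reach of the real test, which was not measured. Array 1 alone gave 10 higher and 5 lower probes, and array 2 alone gave 4 higher and 1 lower. Groups chosen on the shares of array 1 held the same tumours. Testing them on the counts of array 2 thus repeated the fit of array 2 alone, with 4 higher and 1 lower. With groups from array 2 and counts of array 1, 7 were higher and 2 were lower. Both arrays carry the same tumours, so neither is an independent set.

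Probes were then grouped by their levels in samples outside the comparison, the control regions and the middle tumours, since gene lists could not be used. The first list held 99 probes that were higher in spleen than in kidney and liver. Their median log2 fold change was -0.36, with 33 of 99 above 0, against 0.05 and 1098 of 2009 for all probes. Of the 99, 3 were called higher (RTS0112269, RTS0113569 and RTS0113668), which is 3.03% against 0.498% over all probes. RTS0112300 was the 1 called lower, 1.01% against 0.199%. Most of the shift was thus in probes that did not pass. The mean level of these probes was 8.99 ± 0.22 log2 CPM in high-share and 9.26 ± 0.24 in low-share tumours (SD, n = 8 each), 8.93 in the middle tumours, and 9.97 in spleen, 7.85 in kidney and 8.19 in liver regions. The ranges of the groups overlapped, from 8.67 to 9.47 in high-share and from 8.85 to 9.61 in low-share tumours, and tumour 404 was the highest of the high-share tumours. Relative to all probes the median shift was -0.41 with TMM, -0.40 with RLE, -0.38 under upper quartile scaling and -0.41 if only library size was used. The middle tumours were no higher than the high-share tumours, so the level did not follow the order of the share.

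The 142 kidney-high probes had a median log2 fold change of -0.02 and the 46 liver-high probes one of 0.05, with 0 probes of either list called in either direction. The 502 probes of lowest level in the control tissues had a median of 0.19, with 385 above 0, 5 called higher and 0 lower. The mean level of the 502 was 7.11 ± 0.15 log2 CPM in high-share and 6.93 ± 0.07 in low-share tumours. The middle tumours, at 7.11, were at the level of the high-share tumours. The sign of the median was not kept with library size alone. There the median was -0.16, although it was still 0.18 above that of all probes. The 502 probes of highest level in the control tissues had a median of -0.14. Of these, 2 were called higher (0.398%, against 0.498% over all probes) and 3 lower (0.598%, against 0.199%). The mean level of this list was 9.07 log2 CPM in high-share, 9.04 in middle and 9.26 in low-share tumours. Of 71 probes that were above every control region in each middle tumour, 5 were higher (7.04%, against 0.498% over all probes) and 0 lower, with a median of -0.05. Of 11 that were below every control region, 0 were called, with a median of -0.04. These counts describe the lists, and the difference between lists was not tested.

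The call of more or fewer lower probes depended on how libraries were scaled. With library size alone 11 probes were higher and 337 lower, so that 3.16% of the calls were higher, against 71.4% with TMM and 90.5% with upper quartile scaling (19 higher and 2 lower). The median of all probes was -0.34 with library size alone and 0.18 with upper quartile scaling, against 0.05 with TMM. The TMM factors were 0.561 to 1.12 in high-share and 0.982 to 1.24 in low-share tumours. With 1 region per tumour and array 10 probes were higher and 4 lower, and with all tumours thinned to the smallest total 9 and 2. With regions under 50000 counts left out there were 10 and 3, and with the log2 total count as a covariate 12 and 4. The probes were not all the same. Of the 10 higher and 4 lower probes of the main test, 1 region per tumour and array kept 9 and 2. Thinning kept 7 and 2, and the last 2 alternatives kept 10 and 3 each.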

How the data were processed

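GeoMx probe counts of 68 tumour regions, 12 control regions and 1 no-template control were used. Per the file headers, the deposited counts per probe come from the GeoMx NGS pipeline (version 2.3.4), with no normalization recorded. The aligner is not given in the sources used here. In 12 of the 81 files the column of counts could not be named by its header and is listed as other. Per the file headers, these deposited values are counts in the same format, and they were read in the same way. None of the 2010 probe identifiers matched the dog gene table of UU_Cfam_GSD_1.0, so probes are given by identifier. Background was not subtracted.

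Regions were summed per tumour. RTS0112268 was left out of the tests and library sizes, and the groups came from its own share. Counts were tested with edgeR 4.0.16 in R 4.3.3 (quasi-likelihood test, TMM, filterByExpr, Benjamini-Hochberg over 2009 probes, threshold 0.05), with the SE computed from the F statistic. Levels are log2 CPM with a prior count of 2. Depth measures were compared with exact permutation tests in SciPy 1.17.1 (Python 3.11.15), adjusted over 6 measures. Alternatives used DESeq2 1.42.0 and limma 3.58.1 with voom. The scripts were tested on simulated data.

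The members and the lists were chosen with earlier results of these data known. Named probes were the 2 with the largest and the 2 with the smallest log2 fold change among those called, with RTS0112268, RTS0112269 and RTS0113569. RTS0112278, RTS0113616, RTS0112851 and the other called probes were added after their values were seen. A tissue-high list holds probes whose lowest region in that tissue exceeds all regions of the others and whose mean there is higher than each other tissue mean by 1 log2 unit or more. Intervals cover counting error only.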

Additional observations from a re-analysis of the deposited data

Results flagged for a closer look

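A sample far from the others of its group was looked for in 84 groups of values, and 4 stood out. Chance gives about 1 in 20 such groups. Low-share tumour 1002 had 4 regions where the other 7 low-share tumours had 2. RTS0112300 was at 10.22 log2 CPM in spleen replicate 1, below the other spleen regions. RTS0112851 was at 10.56 log2 CPM in middle tumour 2201, far above the other 7. The level of the spleen-high probes was 9.47 log2 CPM in high-share tumour 404, above the other high-share tumours.

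The no-template control, which the comparisons do not use, held 17 counts of RTS0112268 among 74 counts in all. That is 23.0% (95% exact Clopper-Pearson interval 14.0% to 34.2%, counting error only), against shares below 0.1% in the control tissues. RTS0112269 held 23.0% there as well and RTS0113569 5.41%, so these 3 probes, which lead the tumour counts, made up 51.4% of the no-template control. The part this has in the shares of the tumour regions was not tested.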

How the results depend on the processing

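Against 10 higher and 4 lower probes in the main edgeR test, the counts of higher and lower probes were 19 and 2 under upper quartile scaling, 11 and 337 using only library size, 48 and 58 with DESeq2, and 44 and 63 with limma voom on 46 regions with the 16 tumours as a random block (correlation 0.457). They were 23 and 14 with 6 against 6 tumours, 18 and 25 with 12 against 12, and 31 and 65 with the slope over 24 tumours. They were 4 and 1 on array 2 alone, also with groups from array 1, 7 and 2 with groups from array 2 and counts of array 1, and 9 and 2 when thinned. Leaving out 1 tumour gave 3 to 32 higher and 0 to 28 lower. RLE scaling, no filter, keeping RTS0112268, leaving out RTS0112269 and RTS0113569, ranking by summed share, array 1 alone, total count as a covariate, leaving out shallow regions and 1 region per tumour and array stayed within 1.5 times both counts. The probes called were not always the same, but all 14 kept their direction in each alternative that tested them. The causes were not tested.

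RTS0113693 lost its call in 20 of 36 alternatives, RTS0113616 in 16, RTS0112273 in 11 and RTS0112300 in 8. RTS0112269, RTS0113569 and RTS0112278 lost it in 0. Not all of these alternatives are distinct. No filter and ranking by summed share repeat the main fit, and groups from array 1 with counts of array 2 repeat array 2 alone. RTS0112851, not called, changed sign to -0.17 with library size alone and -0.0185 with groups from array 2 and counts of array 1. The slope in the middle tumours gave 1 called probe, 0 under upper quartile scaling or library size alone, and 0 to 6 with 1 tumour left out (5 without 1801, 6 without 2203, 2 without 809, 0 without 1001, 204, 214 or 2201). The array interaction gave 0 throughout. The gap in the 10 highest other probes was 3.08 points without RTS0112269 and RTS0113569. On array 1 alone the differences changed sign to 0.0709 for log2 aligned reads and -0.243 points for saturation, and leaving out 1 tumour gave -0.387 to 0.0443 for log2 aligned reads, the sign changing without 2206. The number of regions differed by 1.5 without tumour 1002 (exact permutation p adjusted 0.0336). These slope, interaction and top-10 alternatives were added after seeing the data. No paired analysis was possible because the high-share and low-share tumours share no tumour number and replicate numbers are only names. In the high-share tumours a mean of 13.4% of probes had under 5 counts in a region (median tumour 9.84%). That percent is of single regions averaged per tumour, whereas the tests used counts summed per tumour. The part that depth has in probes near the lowest levels was not tested for those probes alone.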
